A study of Rattus norvegicus with 9 samples.

Results

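Calcitonin gene-related peptide (CGRP), adrenomedullin and the receptor subunits that bind them were followed through 7 genes of the rat adrenal medulla: the peptide genes Calca, Calcb and Adm, the receptor gene Calcrl, and the receptor activity-modifying protein genes Ramp1, Ramp2 and Ramp3. The members are all probe sets annotated to exactly 1 of these symbols, and that step used no measured value. The 7 genes themselves were chosen with earlier results of these data known. They came to 10 probe sets, of 20826 probe sets with 1 gene symbol and 31099 probe sets in all, and to 7 of 14217 genes. Calca was read by 3 probe sets, Calcrl by 2 and each other gene by 1.

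RNA of the adrenal medulla of adult rats weighing 280 to 320 g was measured on 9 Affymetrix arrays, 3 per group. Control rats were unstressed. In the 1XIMO group the rats were immobilized for 2 hours in 1 session, and in the 6XIMO group for 2 hours daily on 6 days. Both medullas were taken after the last session, and no strain, sex or exact time after the session is given in the labels used here. Whether the arrays of a group came from different rats is not stated, and p-values therefore cover only the spread between these arrays, part of which may be technical. The array is a rat array, and some label text that speaks of mouse or of brain was set aside.

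As background, Calca makes calcitonin or the peptide alpha-CGRP by alternative splicing, and Calcb makes beta-CGRP. Both CGRP forms and adrenomedullin widen blood vessels, and chromaffin cells and nerve fibres of the adrenal medulla are known to hold them. Calcrl encodes a receptor that needs a RAMP partner at the cell surface: with RAMP1 it binds CGRP, and with RAMP2 or RAMP3 it binds adrenomedullin. All of these receptors couple mainly to the stimulatory G protein and raise cyclic AMP.

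Of these genes Calca had a RefSeq promoter window that is shown here, because Calca carried by far the largest difference among the members. The stretch is chr1:178317589-178317779 of the GRCr8 assembly, on the minus strand, and covers 60 to 250 bases before the start listed for the gene, 5′ to 3′, with capitals marking the motif matches described next. It lies just outside the span annotated to the gene.
Calca: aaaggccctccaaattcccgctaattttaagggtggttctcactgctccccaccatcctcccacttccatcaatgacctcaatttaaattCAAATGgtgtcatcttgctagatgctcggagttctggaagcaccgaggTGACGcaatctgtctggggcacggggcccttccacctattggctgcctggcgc
The capitals are an E-box match (CANNTG, first base 160 before the start) and the TGACG part of a cyclic AMP response element (TGACG, first base 112 before the start). The 300-base window, 250 before to 50 after the start, was read on both strands for the whole cyclic AMP response element TGACGTCA, its part TGACG, the AP-1 motif TGANTCA, the hypoxia element core ACGTG, the E-box CANNTG and the Egr motif GCGNGGGCG. A whole element also holds its part, and the 2 then overlap. Of 33469 rat promoter windows of that length, 21.2% held the part of the cyclic AMP element and 72.1% the E-box. The shares for the whole cyclic AMP element, AP-1, the hypoxia core and Egr were 1.83%, 7.33%, 19.3% and 4.98%. The window of Calca held another E-box match 20 bases before the start, that of Ramp1 held 2 and that of Ramp3 held 3. The windows of Adm and Calcrl held none of these letters, and windows of 5 of the 7 members were in the table used. A match is a description of the letters and not a site.

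Of the 9 arrays, 6XIMO replicate 1 stood apart. Its log2 levels correlated at 0.63 to 0.73 with the other arrays, whereas the other 8 correlated among themselves at 0.87 to 0.98. The ratio of the 3′ to the 5′ actin control probe sets was 1.45 to 2.15 in Control and 1.57 to 1.99 in 1XIMO, but 231, 6.11 and 8.87 in 6XIMO, so RNA quality moved with the 6XIMO group. Median intensities were 910 to 1053, 826 to 975 and 593 to 1583 in the 3 groups although the trimmed means were equal at 2499.98 to 2499.99. Summed intensity of the 7 chromaffin-cell markers measured was 271301 to 417550 in Control, 254343 to 519727 in 1XIMO and 944715 to 2351860 in 6XIMO. For the 8 markers of adrenal cortex the ranges were 329785 to 474821, 289714 to 711498 and 1014592 to 1959966, so markers of the cortex were read in all groups. In 6XIMO 4 of the 7 chromaffin markers and 6 of the 8 cortex markers were called higher, beside 8.81% of all probe sets tested. The 2 counts became 1 and 2 after quantile normalization and 3 and 5 with median centring. The part of RNA quality and tissue make-up in the differences below was not tested. Values without 6XIMO replicate 1 are therefore given beside the results.

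Differences were tested with limma on log2(intensity + 16), after the dimmest 30% of probe sets were left out, and called at a Benjamini-Hochberg adjusted p under 0.05 over 14578 probe sets. A difference on this scale understates the change of dim probe sets. The deposited values carry no detection calls. Of the 10 member probe sets 6 passed the filter: 2 of Calca, and those of Adm, Ramp1, Ramp2 and Ramp3. The other 4, of Calca, Calcb and Calcrl, were tested among all 20826 probe sets with no filter. One Calcrl probe set missed the filter level of 8.93 by less than 0.01 on the log2 scale, and the Calca probe set 1369116_a_at passed it at 8.95. Both Calca probe sets that passed were under that level in Control and passed only through the stressed groups.

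**Figure D1:**
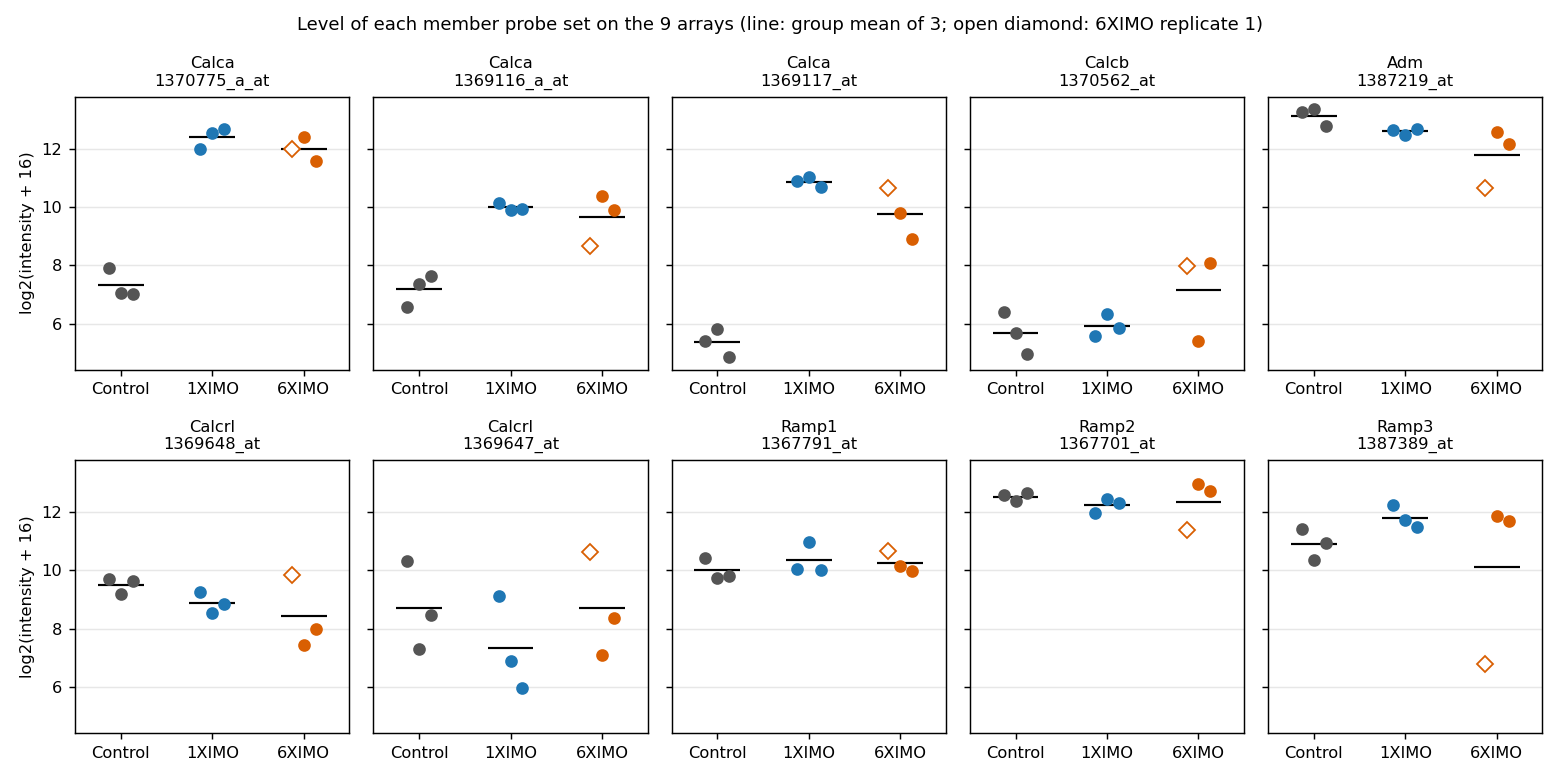
Level of the 10 member probe sets, as log2(intensity + 16), on each of 3 Control, 3 1XIMO and 3 6XIMO arrays; lines are group means of 3 and the open diamond is 6XIMO replicate 1. All 3 Calca panels show both stressed groups above Control with no overlap, and in the Ramp3 panel 6XIMO replicate 1 lies far below the other 2 arrays of its group.

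Calca rose in both stressed groups, and it was the only member called higher in either comparison with Control when all 9 arrays had equal weight. On its brightest probe set, 1370775_a_at, Control intensities were 222, 117 and 114. After 1 session they were 4015, 5911 and 6516, and after 6 sessions 3990, 5382 and 3063. Every stressed array lay above every Control array, and the stressed groups overlapped each other.

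Mean log2 levels of this probe set were 7.32 ± 0.50 (SD, n = 3) in Control, 12.39 ± 0.37 in 1XIMO and 11.98 ± 0.41 in 6XIMO. The difference from Control was 5.07 ± 0.34 (SE) in 1XIMO, or 33.6-fold, with a 95% interval of 4.30 to 5.84 and an adjusted p of 5.055e-05 in limma. In 6XIMO it was 4.66 ± 0.34, or 25.3-fold, with an interval of 3.89 to 5.43 and an adjusted p of 9.942e-05. Without 6XIMO replicate 1 the latter was 4.67 ± 0.36. With no filter, on all 9 arrays, the limma adjusted p was 4.204e-05 in 1XIMO and 9.764e-05 in 6XIMO. These bulk values cannot tell more cells that express a gene from more RNA per cell, or fewer cells from less RNA per cell. The background was 3.96% of all tested probe sets called higher and 4.03% called lower in 1XIMO, and 8.81% higher and 15.3% lower in 6XIMO.

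Another Calca probe set, 1369116_a_at, rose too. Its intensities were 79.5, 147 and 184 in Control, 1115, 947 and 963 in 1XIMO, and 392, 1311 and 943 in 6XIMO. Both stressed groups lay above Control, and the lowest stressed value was that of 6XIMO replicate 1. The log2 difference from Control was 2.80 ± 0.55 (1.58 to 4.03; limma adjusted p = 0.01484) in 1XIMO and 2.46 ± 0.55 (1.24 to 3.68; adjusted p = 0.01186) in 6XIMO, 6.99-fold and 5.50-fold. The latter was 2.95 ± 0.39 when 6XIMO replicate 1 was left out. With no filter, on all 9 arrays, the limma adjusted p was 0.01779 in 1XIMO and 0.01506 in 6XIMO. With median centring of the arrays both calls of this probe set were lost (adjusted p = 0.08463 and 0.06015).

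The third Calca probe set, 1369117_at, was left out by the filter because it was dim in Control. It read 27, 40.3 and 13 in Control, 1860, 2057 and 1621 in 1XIMO, and 1589, 863 and 460 in 6XIMO. All 6 stressed values were above all Control values, and all 6XIMO values were under all 1XIMO values. With no filter it rose by 5.49 ± 0.56 in 1XIMO (44.9-fold, limma adjusted p = 0.0004542), where 2.57% of probe sets were called higher. In 6XIMO it rose by 4.41 ± 0.56 (21.2-fold, adjusted p = 0.001205), where 5.93% were called higher.

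The files do not say which Calca transcript, that of calcitonin or that of CGRP, each probe set reads. The probe sets did not move by the same amount within the arrays. The log2 level of 1370775_a_at minus that of 1369116_a_at was 0.13 ± 1.04 (SD, n = 3) in Control, 2.40 ± 0.49 in 1XIMO and 2.33 ± 0.85 in 6XIMO, and neither stressed group overlapped Control. For 1369116_a_at minus 1369117_at the same means were 1.83 ± 0.86, -0.86 ± 0.21 and -0.12 ± 1.62, again with no overlap with Control. For 1370775_a_at minus 1369117_at the groups overlapped. In the exact two-sided permutation test 3 against 3 arrays allow no p under 0.1, which these 4 contrasts without overlap reached, and the value adjusted over the 9 contrasts was 0.225. These comparisons between Calca probe sets were added after the values were seen.

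Calcb, the gene of beta-CGRP, was among the dimmest probe sets, at the 3.40th percentile of mean level among those with 1 symbol. It read 68.1, 35.6 and 15.1 in Control, 31.8, 65.6 and 41.9 in 1XIMO, and 234, 26.7 and 254 in 6XIMO. The highest values were those of 6XIMO replicates 1 and 3, but replicate 2 lay inside the Control range. With no filter the log2 difference from Control was 0.25 ± 0.82 in 1XIMO (-1.57 to 2.07) and 1.47 ± 0.82 in 6XIMO (-0.35 to 3.29; limma adjusted p = 0.2517), and neither passed the threshold. Leaving out 6XIMO replicate 2 gave 2.34 ± 0.67 and an adjusted p of 0.04389. Leaving out replicate 1 instead gave 1.06 ± 0.78 (adjusted p = 0.3134). Array weights gave 2.51 ± 0.48 (adjusted p = 0.0006019), so the call depended on how the arrays were weighed. With the filter, the estimation of array weights stopped before converging. That filtered fit called 8272 probe sets in 6XIMO in either direction, against 3514 with equal weights.

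Adm, the gene of adrenomedullin, was lower on the stressed arrays and was called lower in 6XIMO. Its probe set 1387219_at read 9741, 10442 and 6913 in Control, 6327, 5593 and 6562 in 1XIMO, and 1596, 6025 and 4571 in 6XIMO. Every stressed array lay below every Control array, the lowest being 6XIMO replicate 1. Such groups without overlap were common: 40.8% of all tested probe sets separated 1XIMO from Control, 42.4% separated 6XIMO from Control and 35.4% separated the stressed groups from each other.

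Mean log2 levels of Adm were 13.12 ± 0.32 (SD, n = 3) in Control, 12.59 ± 0.12 in 1XIMO and 11.79 ± 1.01 in 6XIMO. The 1XIMO difference of -0.53 ± 0.42 (-1.48 to 0.42) did not pass the threshold in limma (adjusted p = 0.5953). In 6XIMO Adm fell by 1.33 ± 0.42 on the log2 scale, 2.51-fold lower, with an interval of -2.28 to -0.38 and an adjusted p of 0.04735. This call was close to the threshold. Leaving out 6XIMO replicate 1 made the fall smaller and less variable, -0.76 ± 0.20 (-1.21 to -0.31; adjusted p = 0.01239), where 30.8% of probe sets were called lower. Leaving out each Control array in turn gave adjusted p values of 0.1292, 0.1392 and 0.07961. Leaving out each 1XIMO array gave 0.06932, 0.07259 and 0.07436, and leaving out 6XIMO replicate 3 gave 0.05572, so that the call was lost each time. It was also lost after quantile normalization, at -1.58 (adjusted p = 0.1058), and with median centring, at -1.16 (0.3815). The median of all tested probe sets was itself -0.12 in 1XIMO and -0.28 in 6XIMO, relative to which Adm is to be read.

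**Figure D2:**
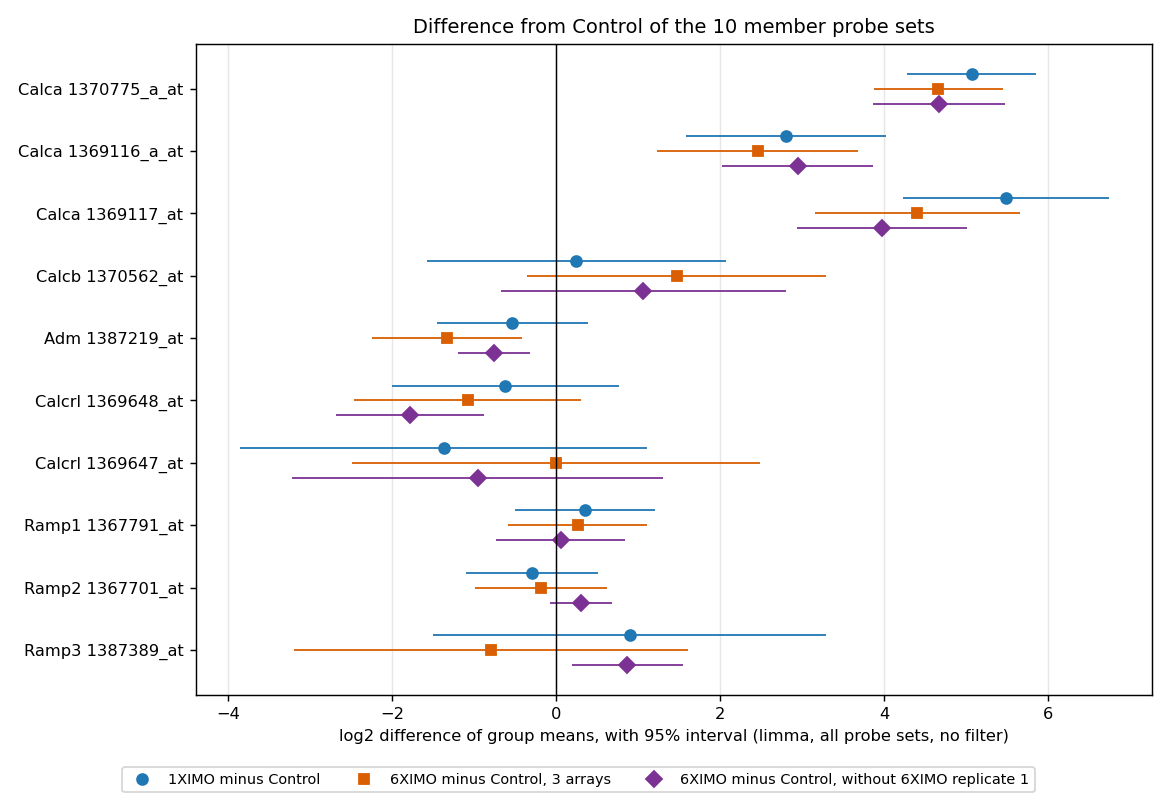
Log2 difference from Control with its 95% interval (limma over all 20826 probe sets, no filter) for the 10 member probe sets: circles are 1XIMO, squares 6XIMO with 3 arrays, diamonds 6XIMO without replicate 1. The 3 Calca probe sets lie at 2.46 or above in every setting, while the Ramp3 value moves from -0.79 to 0.87 when 6XIMO replicate 1 is left out.

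Calcrl, the receptor subunit shared by both peptides, was read by a pair of probe sets that both fell under the filter. Probe set 1369648_at read 808, 565 and 775 in Control, 590, 356 and 449 in 1XIMO, and 891, 157 and 241 in 6XIMO. In 6XIMO replicates 2 and 3 were below all other arrays, and replicate 1 was above them all. With no filter the log2 difference was -0.62 ± 0.62 (-2.00 to 0.77; limma adjusted p = 0.8539) in 1XIMO and -1.08 ± 0.62 (-2.46 to 0.31; adjusted p = 0.2712) in 6XIMO.

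Without 6XIMO replicate 1 the 6XIMO difference of this Calcrl probe set was -1.78 ± 0.40 (-2.68 to -0.88), 3.43-fold lower, and was called in limma (adjusted p = 0.007203), in a fit that called 24.9% of all probe sets lower. The other Calcrl probe set, 1369647_at, varied more within groups than between them. It read 1253, 142 and 341 in Control, 534, 104 and 47 in 1XIMO, and 1555, 123 and 315 in 6XIMO. In each group 1 array read far above the other 2, each time the array numbered replicate 1, and the groups overlapped. The 6XIMO difference was 0.00 ± 1.12, or -0.96 ± 1.02 without 6XIMO replicate 1. The 2 probe sets of Calcrl therefore did not give the same call.

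Ramp1, whose product turns the receptor into the CGRP receptor, was called in neither comparison. It read 1368, 836 and 886 in Control, 1042, 2006 and 1024 in 1XIMO, and 1621, 1115 and 981 in 6XIMO. The 3 groups overlapped. Its log2 differences were 0.35 ± 0.37 in 1XIMO (-0.47 to 1.18; limma adjusted p = 0.7175) and 0.26 ± 0.37 in 6XIMO (-0.56 to 1.09; adjusted p = 0.63), so a rise of up to 2-fold is inside both intervals. With array weights, whose estimation stopped before converging, the 1XIMO difference was 0.72 ± 0.27 and was called (adjusted p = 0.04892). That fit called 5906 probe sets in 1XIMO in either direction, against 1164 with equal weights. Leaving out 6XIMO replicate 1 gave 0.06 ± 0.34 in 6XIMO.

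Ramp2, which forms an adrenomedullin receptor, also overlapped between groups. It read 6046, 5257 and 6400 in Control, 3998, 5492 and 5077 in 1XIMO, and 2621, 7908 and 6737 in 6XIMO. Of the 9 arrays 6XIMO replicate 1 was the lowest and the other 6XIMO arrays were the highest. The log2 difference was -0.29 ± 0.37 (-1.12 to 0.54; limma adjusted p = 0.7949) in 1XIMO and -0.18 ± 0.37 (-1.01 to 0.65; adjusted p = 0.7504) in 6XIMO. With replicate 1 of 6XIMO left out the latter was 0.31 ± 0.17 (adjusted p = 0.1643), with no overlap with Control.

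Ramp3, which forms the other adrenomedullin receptor, read 2700, 1295 and 1963 in Control, 4803, 3328 and 2817 in 1XIMO, and 94.8, 3688 and 3305 in 6XIMO. All stressed arrays but 6XIMO replicate 1 were above all Control arrays, and that array read the lowest value of the 9. On all 9 arrays the log2 difference was 0.90 ± 1.12 (-1.60 to 3.40; limma adjusted p = 0.7862) in 1XIMO and -0.79 ± 1.12 (-3.29 to 1.71; adjusted p = 0.6368) in 6XIMO, and neither passed.

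Leaving out 6XIMO replicate 1 narrowed the spread that all groups share, and Ramp3 was then called higher in both stressed groups. The difference was 0.90 ± 0.28 (0.28 to 1.52; limma adjusted p = 0.03834) in 1XIMO, where 9.71% of probe sets were called higher, and 0.87 ± 0.31 (0.18 to 1.57; adjusted p = 0.04239) in 6XIMO, where 16.4% were called higher. These are 1.86-fold and 1.83-fold. The direction in 6XIMO thus turned with this array. With array weights on all 9 arrays Ramp3 was called higher, by 0.82 in both 1XIMO (limma adjusted p = 0.02931) and 6XIMO (0.03842). The estimation of these weights stopped before converging. That fit called 5906 probe sets in 1XIMO and 8272 in 6XIMO in either direction, against 1164 and 3514 with equal weights. It used the same arrays, so its calls are not separate support for those without 6XIMO replicate 1.

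Between 6 sessions and 1 session none of the 6 member probe sets tested was called in limma, where 10.3% of all probe sets were called in either direction. The smallest unadjusted p among them was 0.09093, for Adm. Calca 1370775_a_at differed by -0.41 ± 0.34 (6XIMO minus 1XIMO, -1.18 to 0.36; adjusted p = 0.4569), 1369116_a_at by -0.35 ± 0.55 (-1.57 to 0.88) and Adm by -0.80 ± 0.42 (-1.75 to 0.15; adjusted p = 0.2431). For Ramp1, Ramp2 and Ramp3 the differences were -0.09 ± 0.37, 0.11 ± 0.37 and -1.69 ± 1.12. When 6XIMO replicate 1 was left out, Ramp3 differed by -0.03 ± 0.31, Adm by -0.23 ± 0.20 and Ramp1 by -0.30 ± 0.34, so the gaps of Ramp3 and Adm between the stressed groups came largely from that array.

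Without 6XIMO replicate 1, Ramp2 was higher after 6 sessions than after 1 by 0.60 ± 0.17 (0.21 to 0.99; limma adjusted p = 0.02751), with 13% of probe sets called higher. With no filter and without that array, Calca 1369117_at was lower after 6 sessions than after 1 by -1.52 ± 0.47 (-2.56 to -0.48; adjusted p = 0.03964), with 15.1% of probe sets called lower. With the array it was lower by -1.08 ± 0.56 (adjusted p = 0.2732). On all 9 arrays the order of the group means was Control, 6XIMO, 1XIMO for all 3 Calca probe sets and 6XIMO, 1XIMO, Control for Adm, and the difference between the neighbours 6XIMO and 1XIMO passed the test for neither gene. For Calca 1369116_a_at the 2 neighbours changed places without that array (6XIMO minus 1XIMO 0.14 ± 0.39).

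A difference between probe sets of the same array does not move with that array's scale, so 9 pairs of members were compared in this way, each gene by its brightest probe set. The level of such a difference has no meaning across probe sets. Its change between groups tells only how members moved relative to each other. Of 18 comparisons with Control 8 had no overlap. The share among pairs of all probe sets was not computed. Among single probe sets tested, 40.8% separated 1XIMO and 42.4% separated 6XIMO from Control, so groups without overlap were common. The smallest p that the exact two-sided permutation test allows is 0.1, which these 8 reached, and 0.225 was the smallest value adjusted over the 18.

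Calca was paired with Adm and with Calcb, the other peptide genes. Calcb was too dim for the size of its pair to be read, and its 2 comparisons are among the 8 without overlap. Calca minus Adm was -5.36, -6.30 and -5.74 in Control, -0.65, 0.08 and -0.01 in 1XIMO, and 1.31, -0.16 and -0.58 in 6XIMO. The change in the mean was 5.60 in 1XIMO and 5.99 in 6XIMO. Adm minus Calcrl changed by 0.09 and -0.25, with overlap between the groups.

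By its brightest probe set, 1369648_at, Calcrl was lower relative to Ramp1 on every stressed array. The other Calcrl probe set, 1369647_at, was not used in the pairs, and its own levels overlapped between groups. Calcrl minus Ramp1 was -0.75, -0.55 and -0.19 in Control, -0.80, -2.44 and -1.16 in 1XIMO, and -0.85, -2.71 and -1.96 in 6XIMO, so the groups did not overlap, though the highest stressed values came close to the lowest Control value. The mean changed by -0.97 and -1.34. Relative to Ramp3, Calcrl was lower in 1XIMO: the difference was -1.72, -1.17 and -1.32 in Control and -2.99, -3.17 and -2.61 in 1XIMO, a change of -1.52. In 6XIMO it was 3.03 in replicate 1, against -4.42 and -3.69 in the others.

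Ramp2 minus Ramp3 was 1.16, 2.01 and 1.70 in Control and -0.26, 0.72 and 0.85 in 1XIMO, a change of -1.19 without overlap. In 6XIMO it was 4.57 in replicate 1 and 1.10 and 1.02 in the others. Without 6XIMO replicate 1, 12 of the 18 comparisons had no overlap, but a 6XIMO group with 1 array fewer separates more easily. Calcrl 1369648_at was then lower in 6XIMO relative to Ramp1 by -1.83, to Ramp2 by -2.09 and to Ramp3 by -2.65.

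**Figure D3:**
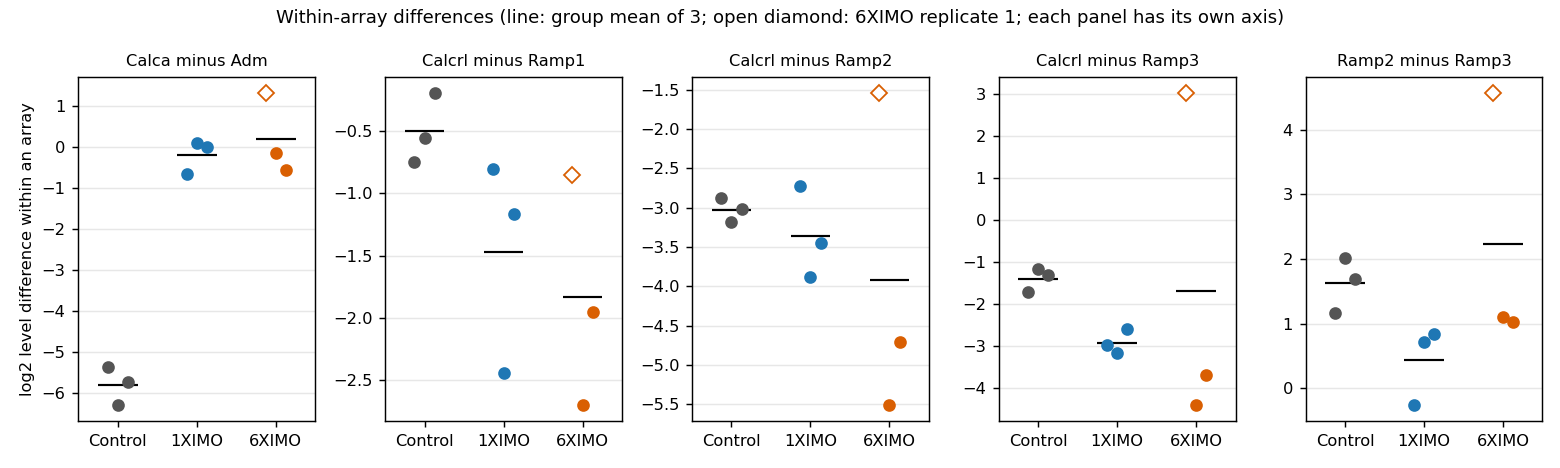
Within-array differences in log2 level between members, each panel on its own axis, for 3 Control, 3 1XIMO and 3 6XIMO arrays; lines are group means and the open diamond is 6XIMO replicate 1. Calca minus Adm moves from about -5.80 in Control to -0.19 in 1XIMO and 0.19 in 6XIMO. Calcrl, by probe set 1369648_at, minus Ramp3 falls from -1.41 to -2.92 in 1XIMO, with 6XIMO replicate 1 at 3.03.

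Among 10632 genes compared over the 9 arrays, each by its brightest probe set and centred on its own Control mean, those most like Calca were Scx, Ackr3 and Maff. Their root mean square distances from Calca were 0.48, 0.48 and 0.57 on the log2 scale, where the median gene lay at 4.18. Scx, a transcription factor of tendon, rose by 4.73 and 4.44 in 1XIMO and 6XIMO, and Maff, a small Maf transcription factor, by 4.73 and 3.89. Those most like Adm were Slc66a3, Cnot7 and Pomgnt2, at 0.17, 0.19 and 0.20 against a median of 0.99, each with its lowest value on 6XIMO replicate 1.

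Ackr3 belongs to the list of genes that clear these peptides, as it encodes a scavenger receptor that binds adrenomedullin. It rose by 4.95 ± 0.25 (limma adjusted p = 1.43e-05) in 1XIMO and 4.15 ± 0.25 (adjusted p = 2.459e-05) in 6XIMO. Of the 4 genes of this list tested it was the only one called in either comparison in the fit of all 9 arrays on the values as deposited. Among all probe sets tested, 3.96% were called higher in 1XIMO and 8.81% in 6XIMO. Of the peptidase genes Mme, Ece1 and Ide, Ide was lower in 1XIMO by -0.64 ± 0.19 (adjusted p = 0.07291) and was called without 6XIMO replicate 1 (0.009421). Ece1 was lower in 6XIMO by -0.49 ± 0.21 (adjusted p = 0.1098) and was called after quantile normalization (0.006973). In each comparison 2 of the 4 genes had an unadjusted p under 0.05 in limma. The list's median difference was 0.04 in 1XIMO and -0.25 in 6XIMO, beside -0.12 and -0.28 for all probe sets tested.

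Among all probe sets tested, 8.81% were called higher in 6XIMO, and 16.4% without 6XIMO replicate 1. Of 9 genes that cleave and amidate peptide precursors or belong to their granules, 0 were called in limma in 1XIMO. There 0 had an unadjusted p under 0.05. In 6XIMO 5 rose (7 without 6XIMO replicate 1), with no gene called lower. These were the convertase gene Pcsk2 (1.68 ± 0.31), its chaperone Scg5 (1.30 ± 0.27), the carboxypeptidase gene Cpe (1.77 ± 0.26) and the granin genes Chga (2.14 ± 0.54) and Chgb (2.63 ± 0.56). The list's median was 0.16 in 1XIMO and 1.30 in 6XIMO. After quantile normalization the 6XIMO median was 0.25 and 4 were called, with Chga at 0.25 and not called, and with median centring 3 were called. Pam, which encodes the enzyme that amidates CGRP and adrenomedullin, differed by 0.16 ± 0.51 in 6XIMO, by 0.90 without 6XIMO replicate 1 (limma adjusted p = 0.001636, called) and by -0.28 after quantile normalization. The summed intensity of the 9 genes moved with that of the chromaffin markers: 249629 to 342402 in Control, 238741 to 400977 in 1XIMO and 741689 to 1855260 in 6XIMO. Chga and Chgb stand in both lists, and the part of tissue make-up in this was not tested.

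**Figure D4:**
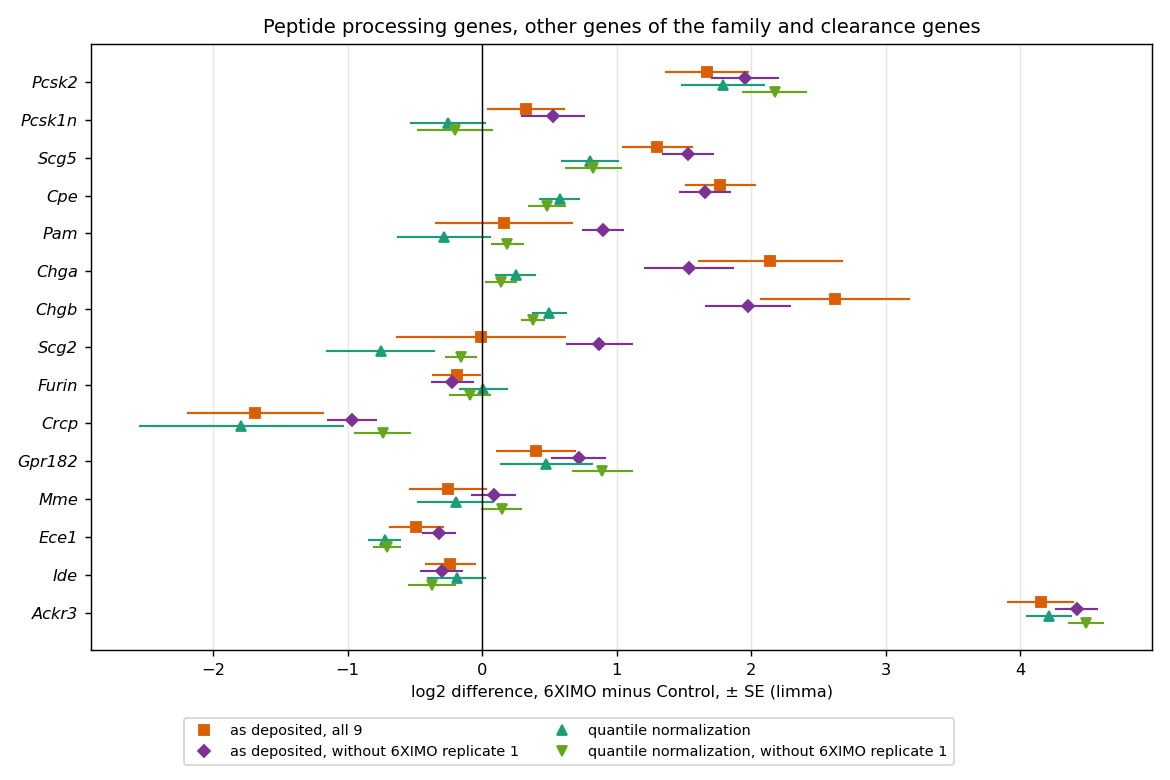
Log2 difference of 6XIMO from Control, with its SE, for 15 genes that process the peptides, belong to the same family or clear them, under 4 treatments of the values. Ackr3 lies above 4 in all 4, whereas Chga falls from 2.14 as deposited to 0.25 after quantile normalization and Pam lies on either side of 0.

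Of the other genes of the calcitonin family 4 were on the array and 2 were tested, Iapp and Calcr being under the filter. Crcp, which encodes the receptor component protein that couples Calcrl to its G protein, differed by -0.74 ± 0.51 in 1XIMO and fell by 1.69 ± 0.51 in 6XIMO (limma adjusted p = 0.03862). The 6XIMO call was lost after quantile normalization (adjusted p = 0.1357) and with median centring (0.2815), and without 6XIMO replicate 1 the difference was -0.97 and called. In that fit the 1XIMO difference was called too (adjusted p = 0.01021). Gpr182, a receptor gene once proposed for adrenomedullin, differed by 0.02 in 1XIMO and 0.40 in 6XIMO, where it was called higher without 6XIMO replicate 1 (0.72 ± 0.20, limma adjusted p = 0.01702). The list's median was -0.36 and -0.64.

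Of 17 genes of the coupling to cyclic AMP and nitric oxide, 1 rose in 1XIMO, and 2 rose and 1 fell in 6XIMO. Beside this, 3.96% of all probe sets tested were called higher in 1XIMO, and 8.81% higher and 15.3% lower in 6XIMO. Leaving out 6XIMO replicate 1 gave 1 higher and 1 lower in 1XIMO, and 4 higher and 2 lower in 6XIMO. That fit called 9.71% of all probe sets higher in 1XIMO, and 16.4% higher and 30.8% lower in 6XIMO. In 1XIMO it called 3877 of 14578 probe sets in either direction, of which 1416 were higher and the rest lower. Nos3, which encodes the endothelial nitric oxide synthase, rose by 1.57 ± 0.33 in 1XIMO (limma adjusted p = 0.01958) and 1.90 ± 0.33 in 6XIMO (adjusted p = 0.004325). Its 1XIMO call was lost after quantile normalization (adjusted p = 0.08153) and with median centring (0.1103). In 6XIMO the protein kinase A subunit gene Prkar1a rose by 1.31 ± 0.25, a call lost after quantile normalization, and Prkaca fell by 1.11 ± 0.24, a call lost with median centring. The list's median was 0.02 and -0.12.

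The counts of the next 2 lists stand beside 3.96% of all probe sets tested called higher in 1XIMO, and 8.81% higher and 15.3% lower in 6XIMO. Of 12 genes listed as regulators of Calca splicing, 0 were called in limma in 1XIMO, where 1 had an unadjusted p under 0.05. Elavl1 (0.89 ± 0.26) and Khdrbs1 (0.73 ± 0.22) rose in 6XIMO, neither of them with median centring. With 6XIMO replicate 1 left out, 2 were called higher in 1XIMO, and 4 higher and 2 lower in 6XIMO. That fit called 9.71% of all probe sets higher in 1XIMO, and 16.4% higher and 30.8% lower in 6XIMO. The list's median was -0.03 and 0.03. Of 9 hypoxia-responsive genes, which in other settings are induced together with Adm, Ndrg1 rose in 1XIMO by 1.08 ± 0.27 (limma adjusted p = 0.04061, or 0.4964 with median centring). In 6XIMO 3 rose, namely the glycolytic gene Pgk1 (1.36 ± 0.28), Ndrg1 (0.85 ± 0.27) and the prolyl hydroxylase gene P4ha1 (0.80 ± 0.26), while Vegfa, a growth factor of vessels, fell by 0.87 ± 0.27 and the mitophagy gene Bnip3 fell by 2.90 ± 0.89. None of these 6XIMO calls was made with median centring. With 6XIMO replicate 1 left out, 10 genes were tested, and 4 were called higher in 1XIMO, and 4 higher and 4 lower in 6XIMO. These counts are to be read beside the shares of all probe sets given above for that fit. The list's median was 0.19 and -0.30.

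Markers of the cell types that could carry the members were set beside these values. For all probe sets tested, 3.96% were called higher and 4.03% lower in 1XIMO, and 8.81% higher and 15.3% lower in 6XIMO. Of 10 endothelial markers tested 0 were called in limma in 1XIMO, where 2 had an unadjusted p under 0.05, and 1, Kdr, fell by 0.79 in 6XIMO. Their summed intensity was 69566 to 78473 in Control, 67560 to 74879 in 1XIMO and 51753 to 67232 in 6XIMO. For smooth muscle and pericytes the ranges were 20748 to 26545, 33623 to 34844 and 18547 to 40332, with 0 of 7 called in limma in 1XIMO (1 at an unadjusted p under 0.05) and 1 lower in 6XIMO. For sensory neurons, another source of CGRP, they were 11845 to 17978, 10516 to 16856 and 11381 to 25126, with 0 of 4 called in limma in either comparison with Control, 0 of them at an unadjusted p under 0.05, and with Tac1, Trpv1 and Scn11a under the filter. Of thyroid markers, Tg and Slc5a5 of the follicular cells were under the filter. Ret, a marker of C cells, which make calcitonin, differed by 1.09 ± 0.48 in 1XIMO (limma adjusted p = 0.2276) and 0.49 ± 0.48 in 6XIMO. It was called higher in 1XIMO without 6XIMO replicate 1 (adjusted p = 0.04774). Chga, which C cells and chromaffin cells share, differed by 0.01 in 1XIMO and rose in 6XIMO as given above. In 6XIMO 1 of 4 Schwann and glial markers (S100b, -0.77) and 1 of 5 leukocyte markers (Csf1r, -1.67) were lower, and 1 of 6 fibroblast markers (Pdgfra, 1.06) was higher. When 6XIMO replicate 1 was left out, 2 of 11 endothelial markers were called higher and 2 lower in 1XIMO, and 2 of 7 smooth muscle markers higher. That fit called 9.71% of all probe sets higher in 1XIMO, and 16.4% higher and 30.8% lower in 6XIMO. In 1XIMO it called 3877 of 14578 probe sets in either direction, of which 1416 were higher and the rest lower. In 6XIMO the same fit called 2 endothelial markers higher and 2 lower, 1 smooth muscle marker each way, 1 of 3 sensory markers lower, and 3 of 6 fibroblast markers higher. It also called 1 of 5 Schwann and glial markers each way, and 1 of 5 leukocyte markers higher and 2 lower. No marker was listed at 0, and the part of these cells in the differences of the members was not tested.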

How the data were processed

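The authors deposited a linear-scale intensity for each probe set on each array. The 2% trimmed mean was equal on all 9 arrays, as whole-array scaling by the authors leaves it; how probes were summarised is not given in the sources used here, and labelling was done by the manufacturer per the labels. Genes were named from the platform annotation: 20826 probe sets had 1 symbol, 436 several, 9780 none, and 57 were controls. Levels are log2(intensity + 16). The dimmest 30% by mean level were left out, and lmFit and eBayes with trend of limma 3.58.1 (R 4.3.3) were fitted to all 9 arrays without a block, leaving 6 residual degrees of freedom. Tests were two-sided, and p-values were adjusted over all 14578 probe sets. The fit was tested on simulated data. The number of arrays limits the precision.

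All member probe sets are named. From each pathway list up to 4 called genes with the smallest adjusted p per comparison are named, and Chga beyond these, Pam, Gpr182 and uncalled genes were named after their values were seen, as were the 5 hypoxia-responsive genes. Alike genes are the 3 nearest to each called member. The members, pathway lists and marker lists were chosen with earlier results of these data known. Promoters were read with Python 3.11.15 from RefSeq (GRCr8). Alternatives covered the added constant, filter, scaling, array weights, pairing, groups in the fit, threshold and single arrays.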

Additional observations from a re-analysis of the deposited data

How the results depend on the processing

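Calca 1370775_a_at was called in all 23 alternatives in both comparisons with Control, at 4.70 to 5.38 in 1XIMO and 4.29 to 4.97 in 6XIMO. The fall of Adm in 6XIMO ranged from -1.71 to -0.75 and lost its call in 14 of 23. Calca 1369116_a_at was tested in 13 of the 23 in each comparison with Control and called in 11. In the others it was left out before testing, which lowers the counts below. The number of member probe sets called in 1XIMO was 2, and 1 with a constant of 1, the dimmest 50% out, quantile normalization, median centring, 1 probe set per gene, only the 2 groups or an adjusted p under 0.01. It was 5 with array weights, which stopped before converging, 4 with no filter and without 6XIMO replicate 1, and 1 to 3 with 1 array left out. In 6XIMO it was 3, and 1 to 4 with 1 array left out. It was 1 with quantile normalization, median centring, only the 2 groups or an adjusted p under 0.01. With no filter and without 6XIMO replicate 1 it was 6 of 10, in a fit that called 24.9% of all probe sets lower alone. Between the stressed groups it was 0, and 1 with quantile normalization without 6XIMO replicate 1, 2 with array weights, and 0 to 1 with 1 array left out. With no filter and without 6XIMO replicate 1 it was 2 of 10, where 15.1% of all probe sets were called lower alone. Within arrays 8 pairs did not overlap, 13 with quantile normalization without that array, and 8 to 12 with 1 array left out.

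Calls over all probe sets were 1164 in 1XIMO (262 with median centring, 5906 with array weights, 3877 without 6XIMO replicate 1, 3532 with the 2 groups, 400 at 0.01), 3514 in 6XIMO (962, 8272, 6879, 1877 and 1368) and 1506 between the stressed groups (105, 6853, 4546, 0 and 35; 662 with quantile normalization). Leaving out 1 array gave 407 to 3877, 1598 to 6879 and 0 to 4546.

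Directions that turned were, with quantile normalization without 6XIMO replicate 1, array weights and no filter without that array, Ramp2 in 6XIMO (0.35, 0.20, 0.31) and Ramp3 in 6XIMO (1.14, 0.82, 0.87), and between the stressed groups Calca 1369116_a_at (0.50, 0.058, 0.14). With the first of these settings Ramp1 and Ramp3 between the stressed groups were 0.079 and 0.068. Calcrl 1369647_at in 6XIMO was -0.005 with a constant of 1, -0.34 with that setting and -0.086 with array weights. With 1 array left out, the turned values lay in ranges of -0.48 to 0.31 for Ramp2 and -1.66 to 0.87 for Ramp3 in 6XIMO, -0.19 to 0.60 for Ramp2 and -0.30 to 0.23 for Ramp1 and -0.35 to 0.14 for Calca 1369116_a_at between the stressed groups. They were -0.11 to 0.60 for Calcb in 1XIMO, -0.96 to 0.81 for Calcrl 1369647_at in 6XIMO and -1.16 to 0.035 for Calcrl 1369648_at between the stressed groups. The cause was not tested.

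Nothing in the labels ties arrays of the same number, and they were not treated as pairs. Same-numbered arrays of different groups correlated at 0.06 to 0.42 in their deviations from the group means, 6 of 9 over 0.1, and 5 of 9 arrays correlated best with their own number. Arrays numbered 1 correlated with each other at 0.42, 0.16 and 0.20, and negatively with every array of another number in the other groups. With the replicate block 2, 2 and 0 member probe sets were called in 1XIMO, 6XIMO and between the stressed groups, and Adm in 6XIMO had an adjusted p of 0.05884 in limma. Over all probe sets 1042, 3608 and 1375 were called with the block.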
